A study of Glycine max with 12 samples.

Results

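Sense junction lncRNAs are assembled transcripts that run on the same strand as an annotated gene, share a splice junction with it and differ from it elsewhere. In the deposited table of young soybean pods they carry the class code j. The members described here are the 729 transcripts with this code on the 20 chromosomes whose host gene holds no other transcript of the code. They are 729 of 1074 transcripts of code j and of 11072 lncRNAs in all, and 6 hosts were left out by name. Another 338 transcripts of code j on the chromosomes share 135 hosts and are called sister isoforms.

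The pods came from the low-linolenic acid mutant MT72 and its wild type JN18, a high-oil soybean variety. MT72 is a fourth-generation line obtained by treatment with ethyl methanesulfonate, a chemical that causes point mutations along the genome, so the materials can differ at many loci. At 30 and 40 d after flowering 3 libraries were made from each material, which gives the groups MT_30 (MT_7, MT_8, MT_9), MT_40 (MT_4, MT_5, MT_6), JN_30 (JN_7, JN_8, JN_9) and JN_40 (JN_4, JN_5, JN_6). Total RNA was depleted of rRNA and sequenced with a stranded kit, and a pod is a mixture of pod wall and seed tissue, so that fewer cells of a type and less RNA per cell cannot be told apart.

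Long noncoding RNAs of this kind arise at genes through alternative first exons, alternative splice sites, retained sequence or early ends of transcription. Alternative splicing is common in plants, and many such isoforms carry no long open reading frame. Expression is given in FPKM, the count of fragments divided by transcript length and by all mapped fragments. StringTie divides the reads of a locus among its assembled isoforms, so the level of a member is an estimate that depends on how the exons shared with the host transcript were divided. The host transcripts, which would show this division, were not analysed here.

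The hosts were mostly protein-coding genes. Of the 729 host names, 688 were found by symbol and 12 by gene ID in the gene list of RefSeq for Glycine_max_v4.0, which gives biotypes but no products. By this list 593 hosts were protein-coding, 102 were themselves noncoding RNA genes, 4 were pseudogenes and 1 was a gene for another RNA. The other 29 hosts were not matched. The members lay on all 20 chromosomes, with 20 to 65 on each (median 35), which was 4.19% to 9.26% of the lncRNAs of a chromosome. They were divided between the strands, with 374 on the plus strand and 355 on the minus strand. Positions are given as in the deposited table, and the sources used here name no genome build.

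Members were short transcripts with few exons. The code requires at least 2 exons, and 407 members (55.8%) had 2, 204 (28%) had 3, 75 (10.3%) had 4 and 43 had 5 or more, up to 8. Sister isoforms had 2 exons in 34.9% and 3 exons in 34.3%, with up to 10. The median spliced length was 606 bases for members, 877.5 for sister isoforms and 338 for all lncRNAs, most of which have a single exon. A length under 1000 bases was found in 563 members (77.2%) and in 56.2% of the sister isoforms. Members of noncoding hosts were longer (median 899 bases) than members of protein-coding hosts (575 bases). The mean exon numbers were close, 2.74 for noncoding and 2.67 for protein-coding hosts.

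**Figure D1:**
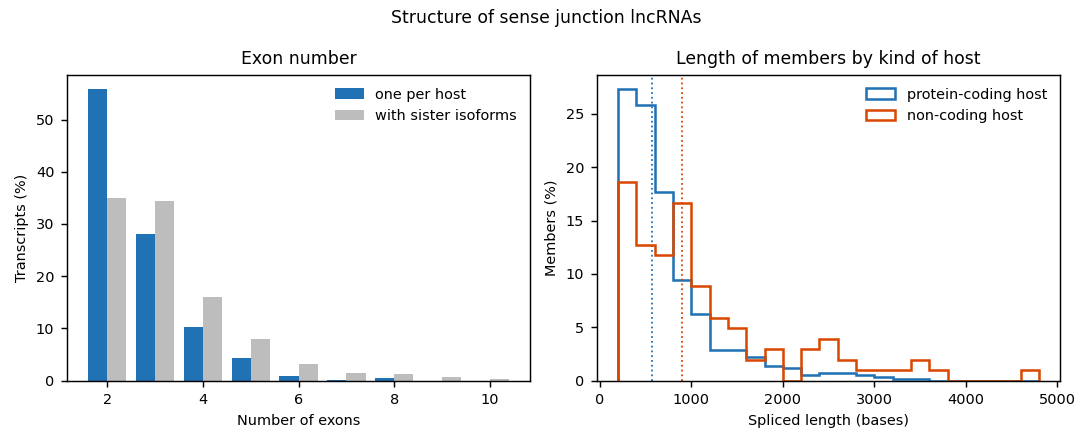
Left, share of transcripts (%) by number of exons for the 729 members (one per host) and the 338 sister isoforms. Right, share of members (%) by spliced length in bins of 200 bases, for 593 protein-coding and 102 noncoding hosts, with dotted lines at the medians of 575 and 899 bases.

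Most members covered a small part of the genome. The median span from the first to the last base was 1507 bases, and only 4 members spanned over 20000 bases. Of these, MSTRG.38563.1 (host LOC100799378) had the longest span, 207539 bases on chromosome 4 for 5 exons and a spliced length of 1109 bases, and it was also the most abundant member. MSTRG.10075.2 spanned 200153 bases and MSTRG.34391.2 spanned 47054 bases, and each was above 0 in only 2 libraries. These 3 were picked out after their spans were seen. The authors used coding potential scores as a filter, so low scores are set by the way the table was made. The median CPC score was 0.0440 for members, 0.0400 for sister isoforms and 0.0182 for all lncRNAs. The highest score was 0.483 in members and 0.491 in all lncRNAs.

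The libraries had 10.0 to 12.3 Gb of aligned bases, and at 1 FPKM a member of median length corresponded to 40.6 to 49.6 estimated reads. Unlike the other 11, JN_9 was an outlying library. It listed 570 members above 0, against 598 to 625 in each of the others. At the same time 120 members had their highest value in JN_9, against 36 to 85 in each of the others, and 30 members reached at least 1 FPKM in JN_9 with more than 2 times the next highest library, against 0 to 5 such members elsewhere. Across the 614 tested members, the correlation of log2 values (Pearson's r, a description across transcripts) was 0.50 to 0.67 between JN_9 and the others and 0.624 to 0.843 between all other pairs. Within JN_30, library JN_8 correlated with the JN_40 libraries at 0.737 to 0.815 and with JN_7 at 0.734. Library JN_7 correlated with the MT_30 libraries at 0.771 to 0.812. The 3 libraries of JN_30 were therefore less alike than those of MT_30 (0.797 to 0.843), MT_40 (0.755 to 0.838) or JN_40 (0.780 to 0.801), and the counts of comparisons with JN_30 are given with and without JN_9.

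**Figure D2:**
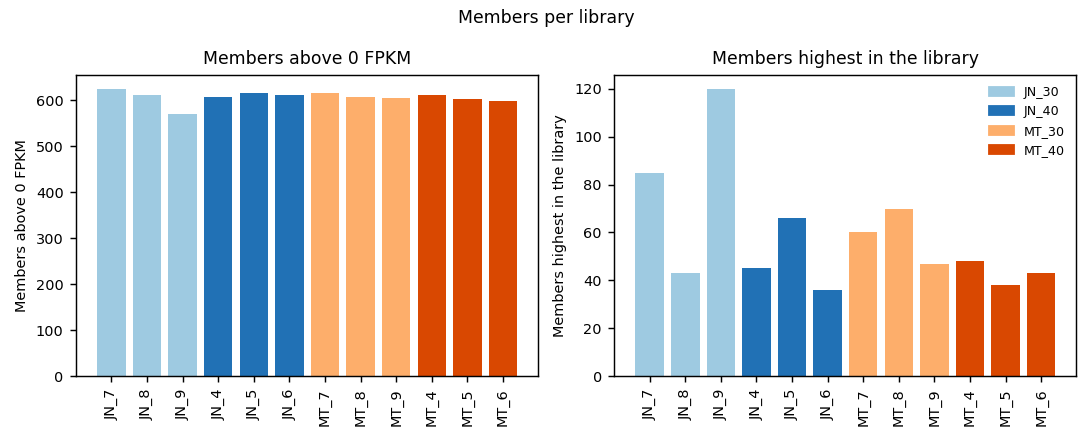
Number of members above 0 FPKM (left) and number of members with their highest value in the library (right) for each of the 12 libraries, coloured by group. Detection lay between 570 and 625, and JN_9 held the highest value of 120 members.

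Some members were high in JN_9 and low in every other library. MSTRG.24244.2 (host LOC100809657) was at 7.64 FPKM in JN_9 and at most 0.0651 in any other library. MSTRG.48670.1 (host LOC100306237) was at 11.2 FPKM in JN_9 and at most 0.288 elsewhere. MSTRG.50164.1 (host LOC100796818) also had its highest value in JN_9, with 40.7 FPKM, but it was not low elsewhere, with 10.8 in the next highest library and 8.68 to 10.2 in MT_40. The other members of this paragraph were chosen after their values were seen.

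Most members were detected in most libraries at low levels. Of the 729 members, 701 were above 0 in at least 1 library, 465 (63.8%) in all 12 and 620 in at least 1 library of every group. All 12 libraries were above 0 for 56.2% of the sister isoforms and 53.8% of all lncRNAs. The 3 libraries of a group were all at 0 for 55 members in JN_30, 68 in JN_40, 65 in MT_30 and 73 in MT_40. Members found in 1 group alone numbered 7 in JN_30, 6 in JN_40, 5 in MT_30 and 2 in MT_40. These counts by group were not made over all lncRNAs, so whether members differ from them here was not tested. The remaining 28 members were listed at 0 throughout. The median of the mean FPKM over the 12 libraries was 0.373 for members, 0.465 for sister isoforms and 0.383 for all lncRNAs. Means above 1 FPKM were found in 166 members (22.8%) and in 17.6% of all lncRNAs. Noncoding hosts and protein-coding hosts had members of nearly the same median level (0.387 and 0.386 FPKM), although 43.1% of the former and 69.5% of the latter were above 0 in all 12 libraries.

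A few members carried much of the signal. Only 10 members had a mean above 10 FPKM, and in each library the 10 most abundant members made up 30.6% to 61.4% of the summed FPKM of all members. The sum was 678 to 1282 FPKM per library and was highest in MT_4 and MT_5.

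MSTRG.38563.1 was the most abundant member, with a mean of 138 FPKM. Its values were 49.9, 84.0 and 55.8 FPKM in JN_7, JN_8 and JN_9 and 99.9, 159 and 127 in JN_4, JN_5 and JN_6. They were 116, 91.2 and 81.5 FPKM in MT_7, MT_8 and MT_9 and 248, 265 and 275 in MT_4, MT_5 and MT_6. The MT_40 libraries were thus above all others, and in each material the groups of the stages did not overlap. The log2 fold change from 30 to 40 d was 1.04 ± 0.39 (SE) in JN18 and 1.46 ± 0.39 in MT72, and neither passed the limma test after Benjamini-Hochberg adjustment over all lncRNAs (adjusted p = 0.298 and adjusted p = 0.0687).

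The second in abundance, MSTRG.24119.1 (host LOC106796798, not matched), varied widely between libraries of the same group. It was at 398 and 346 FPKM in MT_4 and MT_5 and listed at 0 in MT_6. It was at 237 FPKM in MT_8 but at 4.56 and 2.47 in MT_7 and MT_9. In JN18 it was at 52.5 FPKM in JN_7 and 22.9 in JN_5 and at most 5.83 in the other libraries. High and zero values stood side by side in 3 of the 4 groups, and its mean of 89.1 FPKM rests mainly on 3 libraries. No comparison of it passed a threshold, and the log2 difference between MT_40 and JN_40 was 4.39 ± 3.14 (SE).

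Other abundant members were steadier. MSTRG.19975.1 (host LOC102669248, a noncoding RNA gene) had 15.5 to 36.4 FPKM in the 12 libraries, MSTRG.42606.1 (host LOC100527296) had 9.84 to 17.9 and MSTRG.23047.1 (host LOC100500054) had 7.58 to 13.2. MSTRG.48996.1 (host LOC100527725) had 11.8 to 32.6 FPKM in 11 libraries and 4.20 in JN_9. MSTRG.36022.1 (host LOC100500332) had 8.35 to 12.9 FPKM in 11 libraries and 28.8 in JN_9. MSTRG.13352.2 (host LOC100809899) had 4.95 to 21.8 FPKM, with MT_40 (6.04 to 8.65) just under JN_40 (8.94 to 21.8) and an adjusted p of 0.818. The remaining pair of the 10, MSTRG.45876.1 and MSTRG.14451.1, changed with stage in MT72 and is described with that comparison.

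Only 15 hosts had a gene symbol, 3 of them in the deposited table and 12 through RefSeq, and their members are described by the role of the host. Of these hosts 6 fell in the lists of host functions used here and 9 in none. Transcription factors come first. AP1A belongs to the APETALA1 group of MADS-box factors, which specify floral meristems and organs. Its member MSTRG.43332.3 had 1.28, 2.23 and 1.83 FPKM in JN_7, JN_8 and JN_9 and 3.38, 5.2 and 2.63 in JN_4, JN_5 and JN_6. In MT72 it had 6.0, 2.59 and 2.65 FPKM in MT_7, MT_8 and MT_9 and 4.99, 7.81 and 7.46 in MT_4, MT_5 and MT_6. The group means were 1.78 ± 0.48 (SD, n = 3) in JN_30, 3.74 ± 1.33 in JN_40, 3.75 ± 1.95 in MT_30 and 6.75 ± 1.54 in MT_40. Groups did not overlap between the stages in JN18 or between the materials at 30 d. The log2 fold changes were 0.87 to 1.01 in the 4 comparisons, and none passed the test (limma, adjusted p from 0.266 to 0.726). An intronic lncRNA of the same host, MSTRG.43333.1, had a mean of 3.02 FPKM.

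The members of the other transcription factor genes had low levels. WRI1A belongs to the WRINKLED1 factors, which activate genes of glycolysis and fatty acid synthesis in oil-storing seeds. Its member MSTRG.49208.2 had at most 0.0327 FPKM in any library, with 6.17 estimated reads over all 12. NAC162 is a NAC domain factor, and its member MSTRG.41412.2 was above 0 only in JN_9 (0.0967 FPKM) and MT_9 (0.272 FPKM). BES1-8 belongs to the factors that act downstream of brassinosteroids. Its member MSTRG.14760.1 had at most 0.473 FPKM and was at 0 in 4 libraries. The first 2 of these did not pass the filter on low values and were not tested, and the level of the third cannot be followed at this depth, with 26.0 estimated reads in all.

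Hosts for hormone and sugar responses gave higher levels with large differences between libraries. GASA genes encode small cysteine-rich peptides that respond to gibberellin. The member of GASA1, MSTRG.30836.2, had 1.12, 1.45 and 0 FPKM in JN_7, JN_8 and JN_9 and 6.52, 6.54 and 2.80 in MT_7, MT_8 and MT_9. The groups at 30 d did not overlap, with a log2 fold change of 3.13 ± 0.89 (SE) and an adjusted p of 0.149 (limma). Without JN_9 the log2 fold change was 1.87 and the adjusted p 0.271. At 40 d the groups overlapped, with 0.778 to 5.05 FPKM in JN_40 and 2.65 to 6.30 in MT_40. The member of GASA29, MSTRG.23045.1, had 13.5 FPKM in JN_9 and at most 2.15 elsewhere.

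SWEET genes encode sugar transporters that let sucrose or hexoses leave cells, among them those feeding the seed. The member of SWEET48, MSTRG.25948.2, had 0.209, 0.386 and 2.05 FPKM in JN_7, JN_8 and JN_9 and 0.118, 0 and 0 in MT_7, MT_8 and MT_9. It had 1.18, 1.63 and 0 FPKM in JN_4, JN_5 and JN_6, so the groups overlapped at 40 d, and the highest value of JN_30 was that of JN_9. FWL5 is named after FW2.2, a tomato gene that limits fruit size. Its member MSTRG.41156.1 had 0.0833, 1.81 and 15.3 FPKM in JN_7, JN_8 and JN_9, 0.780 to 8.4 in JN_40, 0.251 to 0.756 in MT_30 and 2.21 to 5.71 in MT_40. The groups of MT72 did not overlap, and the adjusted p was 0.336.

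Hosts for metabolism and light or stress signalling completed the set. IDH encodes isocitrate dehydrogenase, which converts isocitrate to 2-oxoglutarate. Its member MSTRG.15548.2 had 0.613 to 0.922 FPKM in JN_30, 1.14 to 2.26 in JN_40, 0.341 to 0.778 in MT_30 and 1.03 to 1.56 in MT_40. All 6 libraries at 40 d were above all 6 at 30 d, while the log2 fold changes of 0.90 ± 0.39 (SE) and 0.95 ± 0.39 did not pass the limma test (adjusted p = 0.379 in JN18 and adjusted p = 0.242 in MT72). GLYI-20 encodes a glyoxalase I, which helps to remove the toxic by-product methylglyoxal, and its member MSTRG.15769.1 had 7.11 FPKM in JN_9 and at most 0.794 elsewhere.

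The last members of the set were low throughout. ALDH22A3 is an aldehyde dehydrogenase gene, and its member MSTRG.17002.2 had 0.0343 to 0.472 FPKM. PHYE2 encodes a phytochrome, a receptor of red and far-red light, and its member MSTRG.17479.2 had 0.0592 to 0.376 FPKM in 11 libraries and 0.936 in JN_9. WNK7 is a gene for a protein kinase of the WNK family, and its member MSTRG.43052.2 had 0.0445 to 0.280 FPKM. CRK13 is a gene for a cysteine-rich receptor-like kinase, and its member MSTRG.51989.4 was at 0.642 FPKM in MT_6 and at most 0.115 elsewhere. The member of CYP12, MSTRG.35940.4, had 0.0343 to 0.576 FPKM. None of the 12 tested members of these 15 hosts passed the adjusted test in any comparison.

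**Figure D3:**
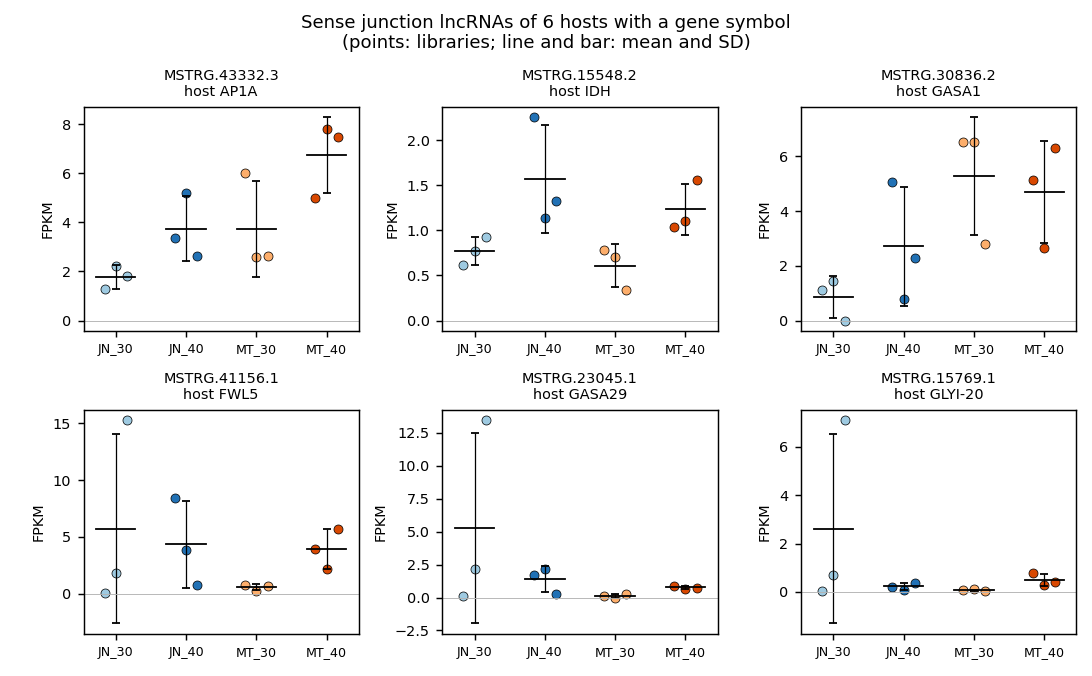
FPKM in each library (points) with the group mean and SD (line and bar, n = 3) for the members of AP1A, IDH, GASA1, FWL5, GASA29 and GLYI-20. The members of FWL5, GASA29 and GLYI-20 have a single high point in JN_30, library JN_9, at 15.3, 13.5 and 7.11 FPKM.

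The comparisons asked which members differed between 30 and 40 d of pod growth and between the mutant and its wild type. They were made with limma on log2 of FPKM plus 0.1 over the 9142 lncRNAs that exceeded 0.1 FPKM in 3 or more libraries, of which 614 were members. The 115 members that did not pass the filter were not tested. A call is an adjusted p of at most 0.05, and the thresholds of the study, an absolute log2 fold change above 1 with an unadjusted p of at most 0.05, are given beside it. Replicates are biological per the study's text. A fold change on this scale understates the change of low transcripts, and none is given against a group whose libraries are all listed at 0.

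In MT72, 4 members rose and 6 fell from 30 to 40 d. Together they were 1.63% of the tested members, and 2.5% of all tested lncRNAs were called (1.59% rose and 0.919% fell). At 40 d the highest of those that rose was MSTRG.45876.1, followed by MSTRG.17150.1 and MSTRG.7706.2, and the most abundant of those that fell was MSTRG.14451.1. Of the 10 members, 8 had protein-coding hosts.

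MSTRG.7706.2 lies on the plus strand of chromosome 12 (678192 to 678973, 2 exons, 625 bases) in the gene LOC100818061. It had 0.0257, 0.00746 and 0 FPKM in MT_7, MT_8 and MT_9 and 0.952, 1.30 and 1.68 in MT_4, MT_5 and MT_6. It was near 0 at 30 d and detected in every library at 40 d, with up to 81.4 estimated reads. The log2 fold change was 3.64 ± 0.45 (SE) with an adjusted p of 0.00184 (limma, n = 3 per group), and the call remained in all 20 alternatives, where the adjusted p was at most 0.0146.

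MSTRG.45876.1 was the most abundant of the members that rose, and it lies on chromosome 7 (18485650 to 18488709, 5 exons, 782 bases) in the protein-coding gene LOC100786388. Its values were 10.9, 7.93 and 7.14 FPKM in MT_7, MT_8 and MT_9 and 39.7, 31.2 and 23.9 in MT_4, MT_5 and MT_6. The lowest library at 40 d was above 2 times the highest at 30 d. The log2 fold change was 1.85 ± 0.32 (SE), with an adjusted p of 0.00981 (limma). The call was lost without MT_4, MT_8 or MT_9 (adjusted p at most 0.0617).

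The other members that rose have noncoding hosts. MSTRG.17150.1 (host LOC102659695) was listed at 0 in MT_7, MT_8 and MT_9 and had 1.18, 2.02 and 2.96 FPKM in MT_4, MT_5 and MT_6 (adjusted p = 0.0196, limma). MSTRG.50315.2 (host LOC100500542) was also listed at 0 in the libraries of MT_30 and had 0.198, 1.29 and 0.470 FPKM in MT_40 (adjusted p = 0.0352). In MT72 both were thus seen at 40 d alone. Both calls were lost without MT_5, MT_6, MT_7, MT_8 or MT_9, with adjusted p of up to 0.0784 and 0.131 (limma). The fourth was MSTRG.7706.2.

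The 6 members that fell all have protein-coding hosts. MSTRG.14451.1 (host LOC100306429, chromosome 14, 8654730 to 8659017) had 11.6, 19.3 and 24.0 FPKM in MT_7, MT_8 and MT_9 and 6.77, 6.13 and 6.39 in MT_4, MT_5 and MT_6. Its log2 fold change was -1.43 ± 0.35 (SE) with an adjusted p of 0.0481, and the call was made in 7 of 20 alternatives. It was lost without MT_4, MT_5, MT_6, MT_8 or MT_9, with an adjusted p of up to 0.214 (limma). MSTRG.9978.1 (host LOC100797475, chromosome 13, 2230734 to 2234017) had 3.14, 3.17 and 2.50 FPKM in MT_30 and 0.527, 0.750 and 0.858 in MT_40. The groups of both did not overlap, and the change of MSTRG.9978.1 was -1.92 ± 0.42 (SE) on the log2 scale with an adjusted p of 0.0294 (limma). The call of MSTRG.9978.1 was lost without any 1 of the 6 MT72 libraries, with an adjusted p of up to 0.129 (limma).

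MSTRG.7462.1 (host LOC100785618) had 1.19, 1.12 and 1.27 FPKM in MT_30 and 0.347, 0.215 and 0.464 in MT_40 (adjusted p = 0.0472, limma). Its call was lost without any 1 of the 6 MT72 libraries, with an adjusted p of up to 0.179 (limma). MSTRG.15215.3 (host LOC100788516) had 1.15, 1.06 and 1.01 FPKM in MT_30 and 0, 0.0911 and 0.0672 in MT_40, a log2 fold change of -3.00 ± 0.71 (SE) with an adjusted p of 0.0434. This call was made in 6 of 20 alternatives and was lost without any 1 of the 6 MT72 libraries, with an adjusted p of up to 0.168 (limma). Both members had tight values in the 3 libraries of MT_30. The remaining pair was listed at 0 in every library of MT_40. MSTRG.37578.1 (host LOC102661973) had 0.252, 0.303 and 0.573 FPKM in MT_30 (adjusted p = 0.0367) and MSTRG.33713.2 (host LOC100788477) had 0.271, 0.357 and 0.292 (adjusted p = 0.0263). Their highest libraries held 19.3 and 10.6 estimated reads, so that these levels are close to what the depth can show. Both calls were lost without any 1 of the 6 MT72 libraries, with adjusted p of up to 0.164 and 0.114 (limma).

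**Figure D4:**
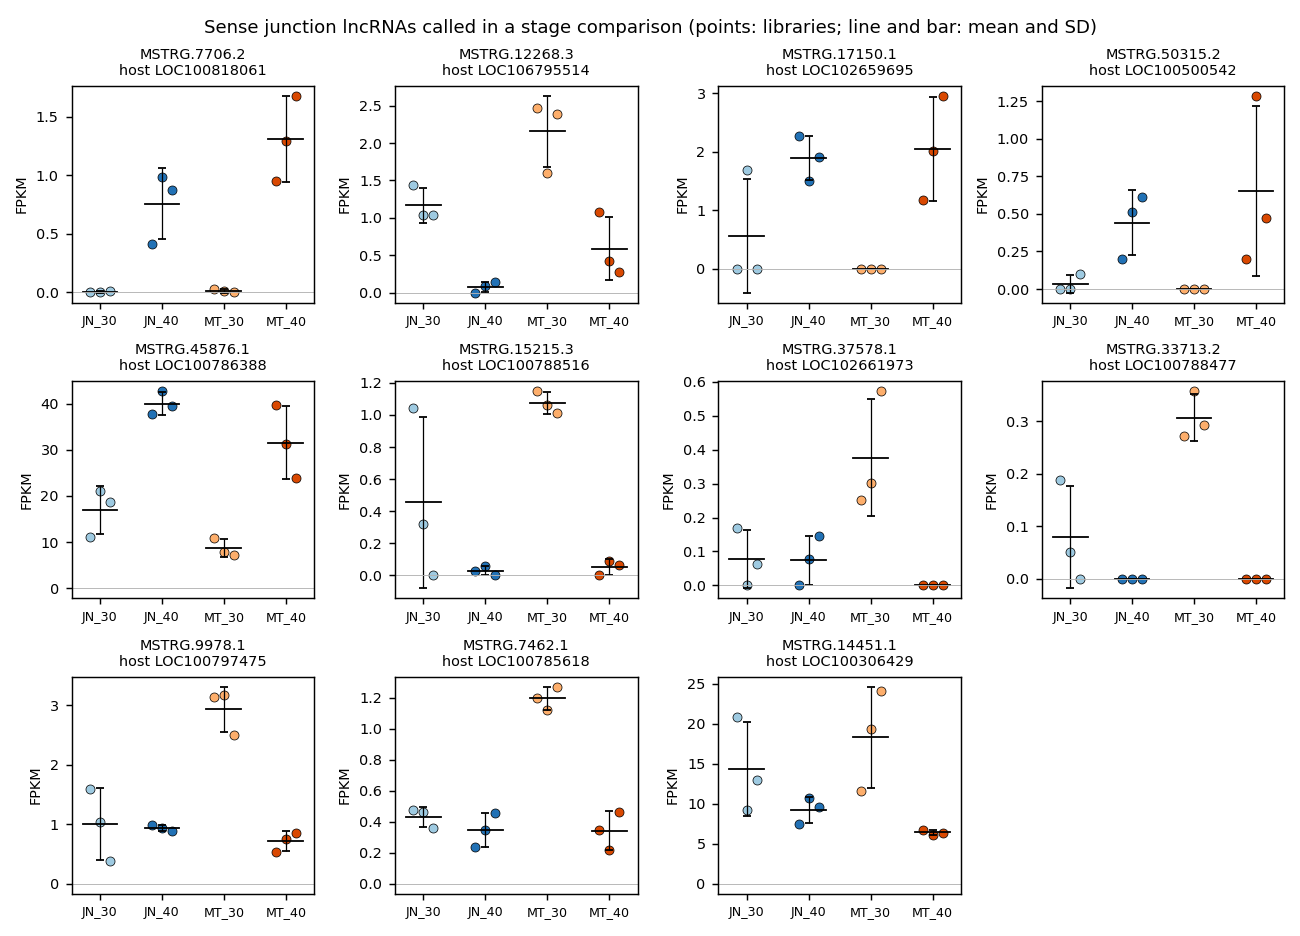
FPKM in each library (points) with the group mean and SD (line and bar, n = 3) for the 11 members called in MT72 or JN18 between 30 and 40 d. In 7 of them the mean of MT_30 lies above that of MT_40, and MSTRG.7706.2 is near 0 in both groups at 30 d.

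The number of members called in MT72 moved with single libraries, and so did the number over all tested lncRNAs, which was 229. The members were 2 without MT_5, MT_6, MT_8 or MT_9 (63 to 105 over all lncRNAs), 3 without MT_7 (87), 4 without MT_4 (91), 6 without JN_5 (196), 18 without JN_7 (341) and 28 without JN_9 (473). The 28 included all of the 10. With only the MT72 groups in the fit 33 members and 644 of all lncRNAs were called, again with all of the 10 members. Of the 10 calls, MSTRG.7706.2 was made in 20 of 20 alternatives and the others in 6 to 17 of 19 or 20.

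At the thresholds of the study, 39 members were higher (6.35%) and 38 lower (6.19%) at 40 d in MT72, beside 6.81% and 7.37% of all tested lncRNAs. The median log2 fold change was -0.02 over the members and -0.10 over all. The libraries of both stages did not overlap in 29.5% of the members and 28.6% of all. Past these thresholds with a mean of at least 0.5 FPKM and no overlap were 30 higher and 26 lower members. This combined rule was not counted over all lncRNAs, so whether members pass it more or less often was not tested. Among the largest, MSTRG.39952.4 (host LOC100791128) had 0, 0.766 and 1.74 FPKM in MT_30 and 6.95, 4.79 and 1.92 in MT_40. MSTRG.9391.2 (host LOC100815215) was listed at 0 in MT_30 and had 0.364, 0.825 and 1.55 FPKM in MT_40. MSTRG.50164.1 had 1.88, 1.18 and 0.705 FPKM in MT_30 and 8.68, 10.2 and 8.94 in MT_40 (adjusted p = 0.182). The groups of the last stood far apart, while its libraries of JN_30 ran from 0.606 to 40.7 FPKM. Without JN_9 its adjusted p was 0.0199.

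Of the 26 lower members, the 6 with the largest differences are named, and 5 of these did not pass the adjusted test. MSTRG.39091.1 (host LOC102662387) had 0.577, 7.77 and 7.12 FPKM in MT_30 and 0.226 to 0.288 in MT_40. MSTRG.53039.3 (host LOC100306112) had 2.01, 0.408 and 3.02 FPKM in MT_30 and 0.131 to 0.233 in MT_40. MSTRG.49810.1 (host LOC100812978) had 4.68, 3.31 and 4.31 FPKM in MT_30 and 0.527 to 1.05 in MT_40. Each was high in all or most libraries of MT_30 and low in all of MT_40. The others, MSTRG.17392.1 (host LOC106796228) and MSTRG.49635.2 (host LOC100798577), had 0.752 to 1.67 FPKM in MT_30 and 0 to 0.400 in MT_40. The adjusted p of the 5 was 0.0639 to 0.226 (limma).

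In JN18, 1 member rose and 1 fell from 30 to 40 d, which was 0.326% of the tested members, beside 0.197% of all tested lncRNAs (0.164% rose and 0.0328% fell). MSTRG.7706.2, which also rose in MT72, was listed at 0 in JN_7 and JN_8 and at 0.0140 FPKM in JN_9, and it had 0.412, 0.983 and 0.877 in JN_4, JN_5 and JN_6. The log2 fold change was 2.96 ± 0.45 (SE) with an adjusted p of 0.0235. MSTRG.12268.3 lies on the minus strand of chromosome 13 (35214095 to 35215040) in the noncoding gene LOC106795514. It had 1.43, 1.03 and 1.04 FPKM in JN_30 and 0, 0.0849 and 0.138 in JN_40. The groups were far apart, with a log2 fold change of -2.94 ± 0.48 (SE) and an adjusted p of 0.0282 (limma). In MT72 the same transcript had 2.47, 1.61 and 2.39 FPKM at 30 d and 1.08, 0.423 and 0.273 at 40 d, with an adjusted p of 0.0639.

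These calls rested on few libraries, with MSTRG.7706.2 called in 13 of 20 alternatives and MSTRG.12268.3 in 8 of 20. Both were made without JN_9 and without JN_8, and neither was made without JN_4, JN_5, JN_6 or JN_7, nor with only the JN18 groups in the fit. Without MT_7, MT_8 or MT_9 the call of MSTRG.12268.3 was lost and that of MSTRG.7706.2 remained. At the thresholds of the study 23 members were higher (3.75%) and 12 lower (1.95%), beside 5.49% and 5.14% of all tested lncRNAs. Without JN_9 the sum of 35 became 60, and that over all lncRNAs went from 972 to 1252. The libraries did not overlap in 12.1% of the members and 13.1% of all. The median log2 fold change was -0.04 over the members and -0.08 over all.

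Members with large differences in JN18 that did not pass the adjusted test include 5 that were higher at 40 d. MSTRG.38271.1 (host LOC100500575) had 0.530 to 0.810 FPKM in JN_30 and 4.79, 2.10 and 2.46 in JN_40 (adjusted p = 0.0867). MSTRG.40796.1 (host LOC100812204) had 0.509 to 0.873 FPKM in JN_30 and 3.16, 3.05 and 2.11 in JN_40 (adjusted p = 0.0941). Both had 3 even libraries at 30 d, and in MT72 the stages overlapped for both. MSTRG.17186.2 (host LOC100500593) had 0, 0.170 and 0.192 FPKM in JN_30 and 2.93, 1.01 and 0.424 in JN_40. MSTRG.22114.1 (host LOC106796785, noncoding) had 0, 0.0294 and 0.0676 FPKM in JN_30 and 0.963, 1.09 and 0.189 in JN_40. The value of MSTRG.11866.2 (host LOC100791328) rests on JN_5, with 7.78 FPKM against 0.869 and 1.06 in JN_4 and JN_6 and 0.314 to 0.634 in JN_30. Lower at 40 d were MSTRG.46997.1 (host LOC102666282), with 1.12, 5.13 and 1.29 FPKM in JN_30 and 0.0681 to 0.451 in JN_40, and MSTRG.52978.2 (host LOC100800724), with 0.711, 0.419 and 6.75 in JN_30 and 0.0274 to 0.335 in JN_40.

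The stage effects of the materials, which share no library, can be set side by side. Across the 614 members their log2 fold changes correlated with Pearson's r = 0.26, beside 0.40 across all 9142 lncRNAs, and 55.0% of the members and 60.2% of all lncRNAs had the same sign. These are descriptions across transcripts, which are not independent replicates, within 1 fit. Past the thresholds of the study in both materials were 14 members (2.28%), beside 305 of all tested lncRNAs (3.34%). Of these, 13 members (2.12%) and 290 of all (3.17%) were past them in the same direction. Of the 13 members, 10 were higher and 3 lower at 40 d. The 10 include MSTRG.7706.2, MSTRG.17150.1, MSTRG.50315.2, MSTRG.45876.1, MSTRG.38563.1, MSTRG.17186.2 and MSTRG.22114.1. MSTRG.17150.1 had 2.27, 1.51 and 1.91 FPKM in JN_40 and was at 0 in JN_7 and JN_9 but at 1.69 in JN_8. The 3 lower at 40 d were MSTRG.12268.3, MSTRG.52978.2 and MSTRG.6649.1 (host LOC102669217). The last was at 0.133 to 0.699 FPKM in JN_30, 0 to 0.0968 in JN_40, 0.354 to 1.80 in MT_30 and 0.0657 to 0.334 in MT_40.

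**Figure D5:**
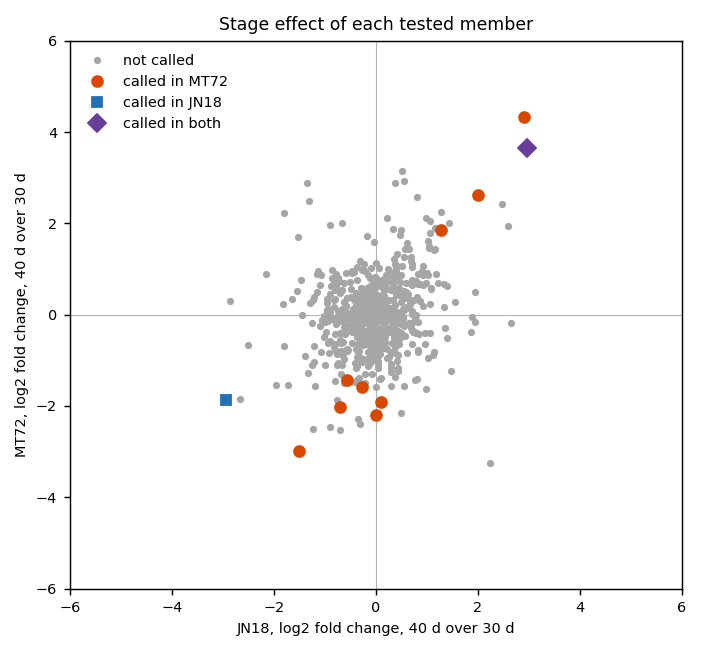
Log2 fold change from 30 to 40 d in JN18 (horizontal) and MT72 (vertical) for the 614 tested members. MSTRG.7706.2 is the diamond, called in both, and 5 of the 6 members that fell in MT72 lie between -1 and 0.5 on the JN18 axis.

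All 6 libraries at 40 d were above all 6 at 30 d in 9 members (1.47%), beside 1.42% of all tested lncRNAs, and below them in 2 members (0.326%), beside 0.831%. The 9 include MSTRG.7706.2, MSTRG.45876.1, MSTRG.50315.2 and the member of IDH. The pair below was MSTRG.52978.2 and MSTRG.2824.1 (host LOC100527632). MSTRG.2824.1 had 1.60 to 2.23 FPKM at 30 d and 0.910 to 1.5 at 40 d, a small step in even libraries, and this transcript was named after its values were seen.

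Between the materials at 30 d, 0 of the 614 members passed the adjusted test, beside 0.886% of all tested lncRNAs. Before adjustment 87 members had a p of at most 0.05 (limma), a count that was not made over all lncRNAs. Whether members reach this p more or less often than all lncRNAs was therefore not tested. Fitted by voom on estimated reads, 0 members and 43 of all lncRNAs were called. The smallest adjusted p of a member was 0.0827 (limma), for MSTRG.17562.1 (host LOC100818289). It had 6.10, 5.66 and 6.31 FPKM in MT_7, MT_8 and MT_9 and 1.90, 1.66 and 0.464 in JN_7, JN_8 and JN_9. The MT_30 libraries were close to each other and all above JN_30, with a log2 fold change of 2.28 ± 0.55 (SE). Without JN_9, the lowest library, it was 1.71 with an adjusted p of 0.200 (limma). At 40 d the materials overlapped, with 0.680 to 3.48 FPKM in MT_40 and 2.12 to 2.90 in JN_40.

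The counts of this comparison moved with single libraries. Without JN_7, 11 members and 187 of all lncRNAs were called (81 over all with JN_7). The number of members was 1 without JN_9 (65 over all), MT_9 (22), JN_5 (76) or MT_6 (60). JN_7 was the library of JN_30 closest to MT_30, and whether this bears on the count was not tested. At the thresholds of the study 44 members were higher in MT_30 (7.17%) and 25 lower (4.07%), beside 7.25% and 4.73% of all. The sum of 69 (1095 over all lncRNAs) became 110 without JN_7 (1642), 40 without JN_9 (903) and 45 without MT_8 (873). The libraries did not overlap in 20% of the members and 17.7% of all, and the median log2 fold change was -0.03 over both.

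Among the members higher in MT_30 by these thresholds, MSTRG.39091.1 had 0.577, 7.77 and 7.12 FPKM in MT_30 against 0 to 0.0903 in JN_30, while JN_5 at 40 d reached 8.08. Its log2 fold change was 4.49, and 4.61 without JN_9. MSTRG.7005.3 (host LOC547737) had 8.36, 2.91 and 3.59 FPKM in MT_30 and 2.18, 1.87 and 0.150 in JN_30. A pair of neighbouring members on the minus strand of chromosome 5 came next, and they lie 404 bases apart. MSTRG.39804.2 (host LOC102666787, noncoding, 24719015 to 24734258) had 0.772, 0.235 and 0.809 FPKM in MT_30 and 0.0120 to 0.0352 in JN_30. MSTRG.39805.1 (host LOC102666964, protein-coding, 24734663 to 24740304) had 0.598, 0.342 and 0.677 FPKM in MT_30 and 0.000484 to 0.122 in JN_30. The pair had its highest values in the same library, MT_5, with 0.878 and 1.55 FPKM, and was low together in MT_4, with 0 and 0.0581. Of the 7 pairs of members within 10 kb on the same strand, this pair had the highest correlation across the 12 libraries, 0.908. The lowest was -0.146 and the median 0.409. Their host genes are annotated separately, and whether MSTRG.39804.2 and MSTRG.39805.1 are 1 transcription unit was not tested. The adjusted p was 0.186 and 0.220 (limma).

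Of the 6 named members lower in MT_30, 3 had their highest value of all libraries in JN_9. MSTRG.10617.2 (host LOC102665214) had 3.52 FPKM in JN_9, 0.221 and 0.181 in JN_7 and JN_8 and at most 0.0623 in MT_30. MSTRG.8497.1 (host LOC106795360) had 3.09 FPKM in JN_9, 0.0374 and 0.0991 in JN_7 and JN_8 and at most 0.0337 in MT_30. The third was the member of SWEET48. Not highest in JN_9 within JN_30 was MSTRG.32243.5 (host LOC100775832, noncoding), with 1.51, 2.64 and 0.225 FPKM in JN_30 and 0.0336 to 0.0794 in MT_30. The same held for MSTRG.46997.1, with 1.12 to 5.13 in JN_30 and 0.315 to 0.955 in MT_30. MSTRG.32324.1 (host LOC100306281) had 2.07, 5.96 and 12.3 FPKM in JN_30 and 1.03 to 1.64 in MT_30. The adjusted p of the 6 was 0.115 to 0.365. For MSTRG.32243.5 JN_9 was the lowest library of JN_30, and without it the log2 fold change went from -2.87 to -3.77. This member was then called, with an adjusted p of 0.0160 (limma). The other named members were not called without JN_9, with adjusted p of 0.348 to 0.733.

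Between the materials at 40 d, 0 of the 614 members passed the adjusted test, beside 0.153% of all tested lncRNAs. Before adjustment 31 members had a p of at most 0.05 (limma), a count that was not made over all lncRNAs. With the fold change threshold of the study added, the share was 4.07% of the members, beside 5.85% of all tested lncRNAs. Fitted by voom on estimated reads, 0 members and 9 of all lncRNAs were called. Without JN_6 and without MT_9, 1 member was called (12 and 14 over all lncRNAs). At the thresholds of the study 15 members were higher in MT_40 (2.44%) and 10 lower (1.63%), beside 3.4% and 2.45% of all. The libraries did not overlap in 12.1% of the members and 14% of all, and the median log2 fold change was 0.02 over the members and -0.01 over all.

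The smallest adjusted p, 0.129, was that of MSTRG.45099.2 (host LOC106799427, a noncoding gene on chromosome 7). It was listed at 0 in MT_4, MT_5 and MT_6 and had 1.32, 0.990 and 0.773 FPKM in JN_4, JN_5 and JN_6. At 30 d it had 0.7, 1.01 and 0 FPKM in MT_7, MT_8 and MT_9 and 0.479 to 0.940 in JN_30. It was thus present in every library of JN18 and in 2 of the 6 of MT72. MSTRG.6398.2 (host LOC102659846) had 0.460, 0 and 0 FPKM in MT_40 and 0.988, 0.939 and 0.463 in JN_40. MSTRG.47743.5 (host LOC100800358) had 0.132 to 0.293 FPKM in MT_40 and 0.639 to 0.854 in JN_40, and MSTRG.20074.2 (host LOC100797899) had 0.103 to 0.328 and 0.479 to 0.729.

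Higher in MT_40 were 6 named members. MSTRG.28688.3 (host LOC100816737) had 0.945, 0.447 and 0.591 FPKM in MT_40 and 0.0993 to 0.199 in JN_40, and it was also higher at 30 d, with 0.306 to 0.586 against 0.102 to 0.197. The log2 fold change was 1.53 ± 0.45 (SE) at 40 d and 1.26 ± 0.45 at 30 d, with adjusted p of 0.453 and 0.229 (limma). MSTRG.12268.3, which fell in JN18, had 1.08, 0.423 and 0.273 FPKM in MT_40 against 0 to 0.138 in JN_40. MSTRG.3782.2 (host LOC100500164) had 1.02 to 1.97 FPKM in MT_40 and 0.347 to 0.657 in JN_40. MSTRG.51011.2 (host LOC100306099) and MSTRG.16029.4 (host LOC100803896) had 0.349 to 0.881 FPKM in MT_40 and 0.0993 to 0.276 in JN_40. The sixth was MSTRG.38563.1.

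All 6 libraries of MT72 were apart from all 6 of JN18 in 3 members (0.489%), beside 1.35% of all tested lncRNAs. They were MSTRG.28688.3, MSTRG.27377.1 (host LOC100305778) and MSTRG.2236.5 (host LOC100802328), each higher in MT72, and the latter pair was named after its values were seen. MSTRG.27377.1 had 3.10 to 4.41 FPKM in MT72 and 1.91 to 2.73 in JN18. MSTRG.2236.5 had 0.286 to 0.628 FPKM in MT72 and 0.0291 to 0.270 in JN18.

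A difference of the stage effect between the materials was tested in the same fit, and 0 of the 614 members passed the adjusted test, beside 0.0766% of all tested lncRNAs. Before adjustment 37 members had a p of at most 0.05 (limma), all of them past the thresholds of the study (6.03%, beside 6.66% of all), and voom on estimated reads called 0. The smallest adjusted p was 0.543, shared by MSTRG.40796.1 and MSTRG.32243.5. MSTRG.40796.1 had 1.05 to 2.14 FPKM in MT_30 and 0.696 to 2.16 in MT_40, beside its higher level in JN_40 than in JN_30. MSTRG.32243.5 went from 0.0336 to 0.0794 FPKM in MT_30 to 0.241 to 1.18 in MT_40, and had 0.0984 to 0.505 in JN_40 beside the higher JN_30 values. Its difference of the stage effects was 4.02 on the log2 scale, and 4.92 without JN_9, with an adjusted p of 0.0726 (limma). That of MSTRG.40796.1 was -2.24, and -2.40 without JN_9, with an adjusted p of 0.418 (limma). The count of 37 (609 over all lncRNAs) was 18 without MT_7 (492), 24 without MT_9 (465), 73 without JN_7 (1055) and 29 without JN_9 (631).

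The kind of host was compared by counts. In MT72, 58 of the 514 tested members of protein-coding hosts were past the thresholds of the study between the stages (11.3%), and 17 of the 80 of noncoding hosts (21.3%). In JN18 the shares were 5.25% and 8.75%, between the materials at 30 d they were 10.7% and 13.8%, and at 40 d 3.70% and 7.50%. The share was higher among noncoding hosts in each comparison, but the comparisons share libraries and no test was made of it. Over all tested lncRNAs the shares were 14.19% in MT72, 10.63% in JN18, 11.98% at 30 d and 5.85% at 40 d. In JN18 both kinds of host were thus below all lncRNAs. The noncoding shares rest on 7 of 80 members in JN18 and 6 of 80 at 40 d. Unmatched hosts had 17 tested members. The median log2 fold change of each kind, protein-coding and noncoding, lay between -0.06 and 0.04 in the 4 comparisons.

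Other lncRNAs lay in 165 of the hosts, and 153 of them held 258 intronic lncRNAs. In 58 of these 153 hosts the member was above the most abundant intronic lncRNA by mean FPKM. The median level of these members was 0.295 FPKM, and that of the most abundant intronic lncRNA of each host was 0.554, while members of hosts with no intronic lncRNA had a median of 0.393. Of the 11 called members, 1 had a second lncRNA in its host. MSTRG.15216.1, an intronic lncRNA of LOC100788516 outside the span of MSTRG.15215.3, had a mean of 1.18 FPKM in MT_30 and was listed at 0 in MT_40, with an adjusted p of 0.0148 (limma). Both lncRNAs of this gene thus fell in MT72 between 30 and 40 d, and whether they come from 1 precursor was not tested.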

How the data were processed

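Total RNA of young pods was sequenced in 12 libraries, grouped by the material and age given in the labels. The deposited table of 11072 lncRNAs holds FPKM values, made by the authors with StringTie after Cutadapt and mapping (HISAT2 in the methods, TopHat2 in the submitters' notes, without versions). The deposited coverage values are mean read coverage per base from StringTie, and coverage over FPKM gave the aligned bases of each library. The CPC score and CNCI score were deposited by the authors, who kept transcripts over 200 bases without coding potential. The sources used here name no build, and only 50 of 688 hosts overlapped their Glycine_max_v4.0 position, so that assembly was used for names and biotypes alone.

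Members were taken by class code, chromosome and host name. Members and lists were chosen with earlier results of these data known. Estimated reads are coverage times length over 150 bases. Levels of hosts with close paralogs are uncertain, because the treatment of multiply mapped reads is not given. The edgeR test of the study needs counts and was not run. limma 3.58.1 (R 4.3.3, trend) was fitted on log2(FPKM + 0.1) over the 9142 lncRNAs that exceeded 0.1 FPKM in 3 or more libraries, 4 groups in 1 fit, with Benjamini-Hochberg adjustment over all. The fit was also run on simulated data with independent noise and changes put into more abundant transcripts only. That run held no library like JN_9, so it cannot show how the fit handles low members or an outlying library. Descriptions used Python 3.11.15 and pandas 2.3.3.

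Members named in the text are, by rule, the calls at adjusted p (threshold 0.05), per comparison and direction the 6 largest differences past the study's thresholds with at least 0.5 FPKM and no overlap, the 10 most abundant, and those of hosts with a symbol in the function lists, while the other symbol hosts were added afterwards. Alternatives were pseudocounts of 0.01 and 1, other filters, the compared groups alone, rescaled FPKM, array weights, voom, a replicate block and leaving out each library. Host transcripts, miRNAs and sequences were not analysed here.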

Additional observations from a re-analysis of the deposited data

Results flagged for a closer look

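MSTRG.17562.1 (host LOC100818289) was picked out because its stage effect went in opposite directions in the materials, with no overlap between the stages in either. In JN18 it was at 0.464 to 1.90 FPKM at 30 d and 2.12 to 2.90 at 40 d, a log2 fold change of 0.98. The 0.464 FPKM was in JN_9, and without this library the log2 fold change was 0.41. In MT72 it was at 5.66 to 6.31 FPKM at 30 d and 0.680 to 3.48 at 40 d, a log2 fold change of -1.64. The difference of the stage effects was -2.62 ± 0.78 (SE) on the log2 scale with an unadjusted p of 0.00509 and an adjusted p of 0.569 (limma), so it did not pass the test over all lncRNAs. Without JN_9 it was -2.04 ± 0.67 (SE), with an unadjusted p of 0.0102 and an adjusted p of 0.629 (limma).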

How the results depend on the processing

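Counts over all tested lncRNAs are given in brackets beside those of the members. The number of members called from 30 to 40 d in MT72 was 10 (229). It was 6 (143) with a pseudocount of 0.01, 52 (831) with array weights and 33 (644) with the compared groups only. Without single libraries it was 2 to 28 (63 to 473). In JN18 it was 2 (18), and it was 1 with a pseudocount of 0.01 (7) or with voom (11). It was 0 with a pseudocount of 1, array weights or the compared groups only (1 in each). Without single libraries it was 0 to 3 (0 to 101). Between the materials at 30 d it was 0 (81), and it was 2 (111) with a pseudocount of 1 and 1 (82) with array weights. Without single libraries it was 0 to 11 (22 to 187). At 40 d it was 0 (14), and 0 to 1 (6 to 28) without single libraries. Leaving out a library of the compared groups also makes the sample smaller. The cause of the lost and gained calls was not tested.

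At the study's thresholds, a pseudocount of 1 gave 12 members in JN18 between the stages (35 in the report), 18 in MT72 (77), 15 between the materials at 30 d (69), 2 at 40 d (25) and 12 for the difference of the stage effects (37). Over all tested lncRNAs it gave 108, 290, 245, 88 and 156 in the same order, against 972, 1297, 1095, 535 and 609 in the report. A pseudocount of 1 draws the fold changes of low transcripts towards 0 by construction. The filter above 0.5 FPKM gave 45 members at 30 d (791 over all lncRNAs), and array weights gave 41 at 40 d (697). Without single libraries the ranges were 32 to 60, 61 to 89, 40 to 110, 17 to 33 and 18 to 73 in the same order. Over all tested lncRNAs they were 721 to 1252, 965 to 1532, 873 to 1642, 431 to 672 and 465 to 1055. At a threshold above 0.1 FPKM the median number of members detected per library was 521, against 609.5 above 0.

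Of 996 values of named members under alternatives, 879 kept their direction and side of the threshold, 92 kept their direction and lost the call, 25 gained a call and 0 changed direction. Most of these values belong to comparisons without a call, which keep their side by staying uncalled. The 92 all fall on the calls of the main fit. Those in MT72 were made in 6 to 20 of 19 or 20 alternatives, and those in JN18 in 13 and 8 of 20. Rescaling moved the median of all lncRNAs by at most 0.05 on the log2 scale. Libraries of MT72 and JN18 share the numbers 4 to 9. The deviations of same-numbered libraries from their group means correlated at -0.16 to 0.01, so the numbers were not taken as pairs. A replicate block between the materials called 0 members at 30 d and 0 at 40 d, as did the fit without it. Depth limits members near 0.1 FPKM to a few estimated reads.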
